A study of Mus musculus with 6 samples.

Results

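Metabotropic glutamate receptors are G protein-coupled receptors that sense glutamate at synapses and on glia. Of the 56923 genes in the count tables, 8 belong to this family, and 6 of them were chosen by name, by a rule that uses no measured value: *Grm2*, *Grm3*, *Grm4*, *Grm5*, *Grm7* and *Grm8*. All 6 were found in the tables and all 6 passed the filter on low counts. RNA was sequenced from the mouse prefrontal cortex in 3 samples labelled *Pla2g4e* KO and 3 labelled wild type (WT), as 1 polyadenylated, strand-specific library each. The product of *Pla2g4e* is a phospholipase of the cytosolic A2 family that calcium activates, and the constitutive knockout of the study carries the gene-trap allele *Pla2g4e* tm2a on a C57BL/6N background with the A tm1Brd agouti allele. The trap inserts a lacZ cassette and is predicted to give a null allele. No treatment is given for either group, and the labels state neither age, sex nor litter. In the behavioural tests of the study both sexes were used, and no Cre is named for this line. The labels do not say whether all libraries of a group came from separate animals, so p-values measure the spread between these 3 and 3 samples.

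The receptors fall into 3 groups by sequence and coupling. Group I, to which *Grm5* belongs, acts through Gq, phospholipase C and calcium release, mostly on the postsynaptic side of excitatory synapses, where Homer proteins tie it to the scaffold. Group II (*Grm2* and *Grm3*) and group III (*Grm4*, *Grm7* and *Grm8*) act through Gi and Go, lower cyclic AMP and restrain transmitter release from nerve terminals. *Grm3* is also the main receptor of this family on adult astrocytes and responds to the dipeptide N-acetylaspartylglutamate (NAAG).

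Library totals ranged from 11792463 to 14594230 fragments (read pairs), and the correlation of log2 CPM across genes, which are not independent replicates, was 0.974 to 0.985 between libraries. CPM is the number of fragments of a gene per 1000000 of the scaled library, and TPM, used for levels between genes, also divides by exon length. For *Pla2g4e* itself, KO replicates 1 to 3 had 5.95, 8.12 and 7.97 CPM and WT replicates 1 to 3 had 7.84, 11.3 and 13.2 CPM. The groups overlapped, and the log2 fold change was -0.55 (95% interval -0.99 to -0.10; limma-voom unadjusted p = 0.0205, adjusted p = 0.635), lower in KO. The study describes the lacZ insertion as a means to bring about decay of the transcript. In hippocampus, the study saw no Pla2g4e protein in knockout extracts by Western blot, and antibody staining in WT sections only. These counts are of RNA from another region and cover all exons of the gene together, and how well they check the labels was not tested. *Xist* reached 1387 CPM in KO replicate 1 and 969 CPM in WT replicate 1. The other 4 libraries had no more than 0.246 CPM of *Xist* and carried Y-linked transcripts, so each group drew on more than 1 animal. Markers of other tissues also differed between libraries. The 7 olfactory bulb markers (*Eomes*, *Tbx21*, *Cdhr1*, *Doc2g*, *Th*, *Synpr* and *Sp8*) summed to 143 to 420 CPM in KO and 99.8 to 201 CPM in WT, and all 7 had a higher mean in KO. KO replicate 1 stood apart, with *Eomes* at 23.2 CPM against 0 to 5.33 CPM in the other 5 libraries. The 8 striatal markers summed to 227 to 331 CPM in KO and 165 to 298 CPM in WT, and the 8 neuronal markers to 6436 to 6947 and 6877 to 7897 CPM. No marker of these 3 lists was at 0 in all 6 libraries.

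The relative level of each receptor was examined first. For levels between genes, fragments were divided by the exon length of the gene and scaled so that all genes of a library sum to 1000000 (TPM). *Grm5* and *Grm3* were the most abundant and *Grm8* the least. *Grm5* was at 88.9 ± 4.76 TPM (SD, n = 6), above 89.9% of the 19084 genes tested. *Grm3* was at 80.5 ± 5.17 TPM, above 88.6% of them. *Grm2* reached 44.4 ± 5.87 TPM and *Grm7*, a presynaptic receptor of low glutamate affinity, 41.0 ± 1.87 TPM. *Grm4* was at 18.0 ± 5.50 TPM and *Grm8*, also presynaptic, at 7.69 ± 0.911 TPM, above 41.1% of the genes tested. Of the summed level of the 6 genes in WT, *Grm5* took 32.0 ± 0.33%, the group II pair 44.8 ± 0.887% and the group III genes 23.2 ± 1.17% (SD, n = 3). In KO these shares were 31.4 ± 1.87%, 44.3 ± 1.36% and 24.3 ± 1.96%. The groups overlapped for each of these shares and for the sum, which was 285 ± 5.97 TPM in KO and 276 ± 3.95 TPM in WT. The order of the shares rests on the length used. Over all libraries *Grm5* took 43.3%, *Grm2* 14.2% and *Grm3* 16.0% with coding length, chosen after seeing the data. Without division by length they took 50.6%, 12.1% and 13.7%, so *Grm5* exceeded the group II pair on both of these scales.

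**Figure D1:**
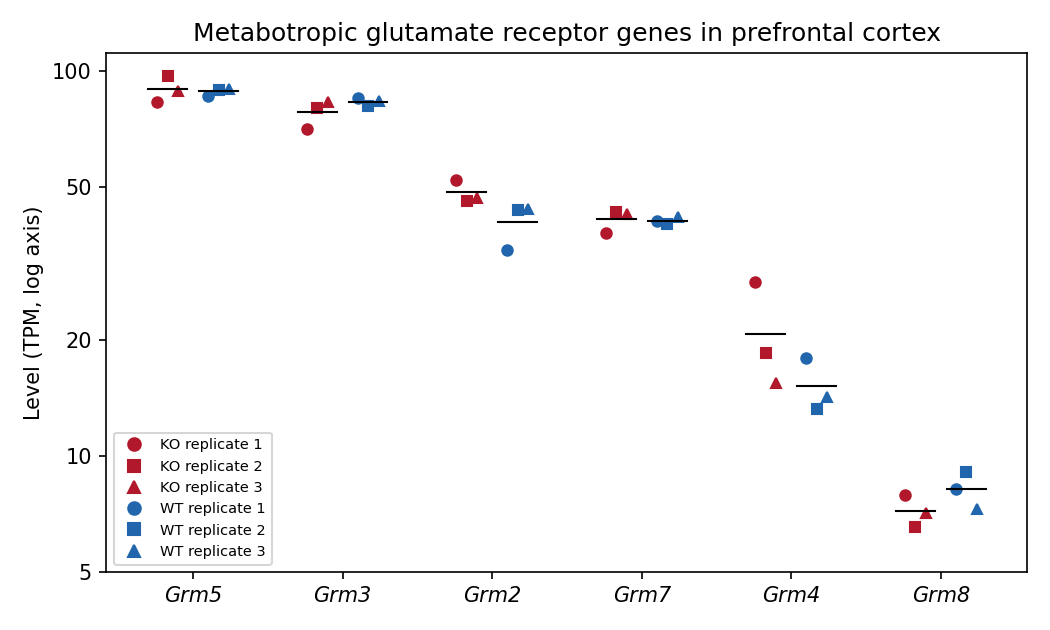
Level of each receptor gene in TPM on a log axis, by gene in falling order of mean; each symbol is 1 library, red for KO and blue for WT, and the black bar is the group mean. *Grm5* lies between 82.9 and 97.2 TPM and *Grm8* between 6.52 and 9.10 TPM, and KO replicate 1 is the highest library for *Grm2* and *Grm4*.

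The order *Grm5*, *Grm3*, *Grm2*, *Grm7*, *Grm4*, *Grm8* was seen in 5 of 6 libraries, and in WT replicate 1 *Grm7* lay above *Grm2*. Not every step of this order exceeded its spread. *Grm5* exceeded *Grm3* in 6 of 6 libraries, by 0.14 ± 0.09 on the log2 TPM scale (SD, n = 6), but the ranges of the pair overlapped. *Grm2* and *Grm7* differed by 0.11 ± 0.23, less than the spread. The steps from *Grm3* to *Grm2* (0.87 ± 0.28), from *Grm7* to *Grm4* (1.24 ± 0.44) and from *Grm4* to *Grm8* (1.18 ± 0.45) held in 6 of 6 libraries without overlap. The closeness of *Grm3* to *Grm5* and its distance above *Grm2* and *Grm7* rest on its short annotated exons, 3049 bases against 10247 bases for *Grm5*. Divided by coding length instead, an alternative chosen after seeing the data, *Grm5* was at 84.4 ± 4.31 TPM and *Grm3* at 31.1 ± 1.85 TPM, close to *Grm7* (29.1 ± 1.35 TPM) and *Grm2* (27.8 ± 3.96 TPM). *Grm5* was first and *Grm8* last on both length scales, but with coding length *Grm4* exceeded *Grm8* in 5 of 6 libraries only, by 0.45 ± 0.45 on the log2 scale, and their ranges overlapped.

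In GRCm39, the assembly of the files, *Grm5* (ENSMUSG00000049583.16) spans chromosome 7 from 87233376 to 87784115 on the plus strand. *Grm2* (ENSMUSG00000023192.13) lies on chromosome 9 from 106520294 to 106533281, the shortest span of the 6 at 12988 bases, and *Grm3* (ENSMUSG00000003974.7) on chromosome 5 from 9535541 to 9775170, both on the minus strand. *Grm4* (ENSMUSG00000063239.18, minus strand) spans chromosome 17 from 27641361 to 27740377. *Grm7* (ENSMUSG00000056755.14, plus strand, 110622542 to 111544191) and *Grm8* (ENSMUSG00000024211.16, minus strand, 27275118 to 28135177) are on chromosome 6 and span 921650 and 860060 bases. All are protein-coding, and counts cover all exons, untranslated parts included. Among the 6, *Grm8* alone shares exon sequence with another gene on its own strand, 96 bases with *Mir592*, which had 0 fragments.

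Start-site sequences of the group II pair are shown because these close relatives had mean differences of opposite sign between KO and WT. They come from RefSeq for GRCm38.p6, run from 250 bases before to 50 after the annotated start, and carry each CpG in capitals. *Grm7* and *Grm8* also matched the table, and *Grm4* and *Grm5* did not. The *Grm2* region is chr9:106656060-106656359 and the *Grm3* region chr5:9725303-9725602, both on the minus strand and printed 5′ to 3′.

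Grm2: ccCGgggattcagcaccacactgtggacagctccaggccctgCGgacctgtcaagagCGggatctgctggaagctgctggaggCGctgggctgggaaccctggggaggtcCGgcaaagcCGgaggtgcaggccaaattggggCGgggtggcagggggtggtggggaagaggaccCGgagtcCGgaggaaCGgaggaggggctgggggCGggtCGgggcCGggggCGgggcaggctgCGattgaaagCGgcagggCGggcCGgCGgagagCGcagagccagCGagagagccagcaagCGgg

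Grm3: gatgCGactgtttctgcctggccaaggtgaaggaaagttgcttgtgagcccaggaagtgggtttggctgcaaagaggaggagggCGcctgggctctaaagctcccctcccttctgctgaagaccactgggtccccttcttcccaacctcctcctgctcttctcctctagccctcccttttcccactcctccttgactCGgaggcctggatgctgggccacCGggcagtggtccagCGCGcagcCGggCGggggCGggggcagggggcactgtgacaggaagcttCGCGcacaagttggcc

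The *Grm2* region holds 22 CpGs and 72.0% G and C, and the *Grm3* region 11 CpGs and 63.7%, against medians of 7 CpGs and 53.0% over 32544 such regions. The letters GGGCGG, searched on both strands, occur 4 times in the *Grm2* region and 2 times in that of *Grm3*, and 35.9% of all regions hold them at least once. The letters TGACGTCA occur in neither, against 1.80% of all regions. These are descriptions of sequence and say nothing about which factors bind.

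To ask whether the receptors differed between the libraries labelled *Pla2g4e* KO and WT, KO was compared with WT across all 19084 tested genes with limma-voom. None of the 6 receptors passed at an adjusted p-value under 0.05, and 0 of all genes did (0% of those tested). At an unadjusted p-value under 0.05, 1 of 6 passed, *Grm2*, against 7.82% of all genes (1492). The CPM values of KO and WT did not overlap for 1 of 6, again *Grm2*, against 13% of all genes. Mean log2 fold changes were above 0 for 2 receptors and below 0 for 4, with a median of -0.02 against 0.01 over all genes. In edgeR's quasi-likelihood test 0 genes and in DESeq2 1 gene passed the adjusted threshold, and neither called a receptor.

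*Grm2*, a presynaptic group II receptor of neurons, was at 66.0, 57.0 and 59.0 CPM over the KO libraries, against 44.1, 54.9 and 56.7 CPM over the WT libraries (replicates 1 to 3 in this order, here and for the other genes). All KO libraries lay above all WT libraries, although the lowest KO and the highest WT value, 56.95 and 56.75 CPM, were nearly equal. The means were 60.7 ± 4.76 CPM for KO and 51.9 ± 6.82 CPM for WT (SD, n = 3), a log2 fold change of 0.23 (SE 0.10; limma-voom unadjusted p = 0.0375, adjusted p = 0.635). WT replicate 1 was the lowest and KO replicate 1 the highest of the 6. Without WT replicate 1 the log2 fold change was 0.12, and among the 4 libraries with Y-linked transcripts it was 0.055, against a difference of 0.58 between the single KO and the single WT library with *Xist*. The unadjusted p-value in limma-voom rose to 0.197 when WT replicate 1 was left out, to 0.131 when KO replicate 1 was, and to 0.0527 when KO replicate 3 was. With Y-linked expression (low or high) as a covariate the estimate was 0.23 (limma-voom unadjusted p = 0.0274, adjusted p = 0.428). *Grm3* went the other way in its means, at 55.8, 61.8 and 65.3 CPM over the KO libraries, against 68.2, 63.7 and 67.4 CPM over the WT libraries, and the groups overlapped. For *Grm3* the log2 fold change came to -0.13 (SE 0.08; limma-voom unadjusted p = 0.122, adjusted p = 0.677). Without KO replicate 1 the *Grm3* estimate was -0.063 (limma-voom unadjusted p = 0.448), and among the libraries with Y-linked transcripts -0.045. The ratio of *Grm2* to *Grm3* per length stood at 0.738, 0.574 and 0.563 over the KO and 0.403, 0.537 and 0.524 over the WT libraries, without overlap. Since both members of that ratio were seen before it was formed, it carries no test.

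*Grm4*, a group III receptor of nerve terminals, had the largest estimate of the 6 on the log2 scale with all libraries and no covariate. Without KO replicate 1, *Grm8* (-0.30) and *Grm2* (0.17) exceeded the *Grm4* estimate of 0.13 in size. With the olfactory bulb marker covariate *Grm2* (0.24), *Grm8* (-0.24) and *Grm3* (-0.09) exceeded the *Grm4* estimate of 0.04 in size. Among the libraries with Y-linked transcripts *Grm8* (-0.29) exceeded *Grm4* (0.26) in size. *Grm4* was at 43.9, 28.1 and 23.7 CPM over the KO libraries, against 28.4, 20.4 and 22.5 CPM over the WT libraries. KO replicate 1 stood well above the other 5 libraries, and the remaining values of the groups overlapped. The log2 fold change was 0.40 (SE 0.20), with a 95% interval of -0.03 to 0.84 (limma-voom unadjusted p = 0.0641, adjusted p = 0.637). Its spread within groups, a pooled SD of 0.37 on the log2 scale, exceeded that of 98.9% of the 8136 genes with a mean log2 CPM of 4 to 8. Counting error was 5.24% at its mean count, against a coefficient of variation of 33.3% in KO and 17.4% in WT. Without KO replicate 1 the estimate was 0.13 (limma-voom unadjusted p = 0.371), and without KO replicate 3 it was 0.59 (limma-voom unadjusted p = 0.00702, adjusted p = 0.593). In the libraries with *Xist*, 1 of each genotype, KO had 43.9 CPM and WT 28.4 CPM, and in the other 4 the means were 25.9 and 21.4 CPM, without overlap. With the Y-linked covariate the estimate was 0.41 (limma-voom unadjusted p = 0.00135, adjusted p = 0.222). The libraries with *Xist*, KO and WT replicate 1, were also the highest in olfactory bulb markers (mean log2 deviations 2.22 and 0.46). How far this covariate stands for those markers was not tested.

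The level of *Grm4* moved with the olfactory bulb markers. By the mean log2 deviation of those 7 markers the libraries were KO replicate 1 (2.22), WT replicate 1 (0.46), KO replicate 2 (0.10), KO replicate 3 (-0.35), WT replicate 3 (-0.45) and WT replicate 2 (-1.98), and by *Grm4* they stood in the same order (Pearson's r 0.961 and Spearman's rho 1 over 6 libraries, in each of which the gene and the markers share a tissue piece and a depth, as a description without a test). With the marker mean as a covariate in the limma-voom fit, an alternative chosen after seeing the data, the *Grm4* log2 fold change was 0.04 (SE 0.12), with a 95% interval of -0.20 to 0.29 (limma-voom adjusted p = 0.961). In the same fit that of *Grm2* was 0.24 (SE 0.11) and that of *Grm8* -0.24 (SE 0.14). In bulk tissue, fewer cells of a type and less RNA per cell cannot be told apart. *Grm4* also ran with the 8 astrocyte markers (Pearson's r 0.735 and Spearman's rho 0.886), all 8 of which had a fitted log2 fold change above 0, at summed levels of 4208 to 4616 CPM against 3960 to 4624 CPM in WT. For the 4 markers of oligodendrocyte precursors the values were 0.725 and 0.829, with 2 fitted log2 fold changes above and 2 below 0 and summed levels of 118 to 136 CPM against 111 to 145 CPM. None of these markers was at 0 in all libraries, and their part in the *Grm4* difference was not tested. For the other 5 receptors Pearson's r with the olfactory bulb markers lay between -0.595 (*Grm3*) and 0.300 (*Grm2*). These receptors also moved with other marker lists. By size, the largest r of *Grm2* was -0.612, with the neuronal markers, and it had 0.548 with the oligodendrocyte markers. The largest of *Grm5* and *Grm7* were 0.742 and 0.601, both with the cerebellar granule neuron markers. The part of these markers in the differences was not tested.

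**Figure D2:**
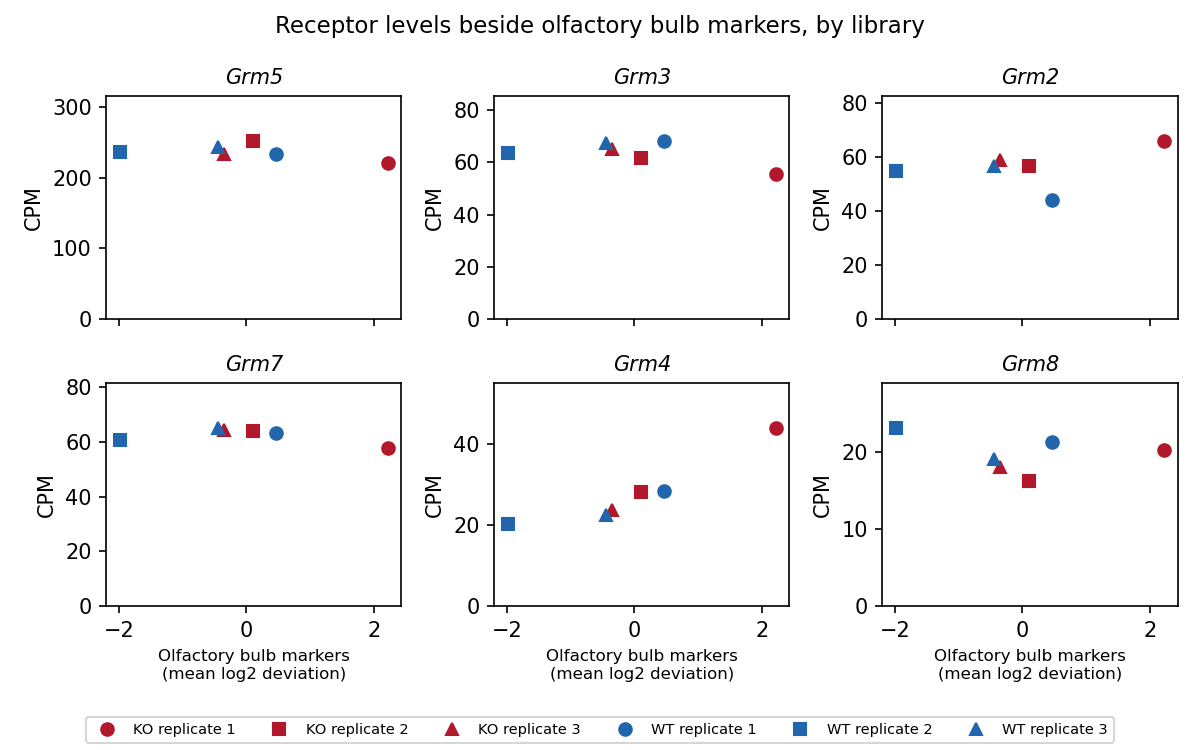
Level of each receptor in CPM on axes that start at 0, against the mean log2 deviation of the olfactory bulb markers from their average over the 6 libraries; each symbol is 1 library, red for KO and blue for WT. *Grm4* climbs with the markers from 20.4 CPM in WT replicate 2 to 43.9 CPM in KO replicate 1, and *Grm7* stays between 57.9 and 65.1 CPM.

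*Grm5*, the postsynaptic group I receptor, was at 220, 252 and 233 CPM over the KO libraries, against 233, 236 and 244 CPM over the WT libraries, from 2879 to 3256 fragments per library. The KO values spanned the WT values. The log2 fold change was -0.02 (SE 0.07), and its 95% interval, -0.16 to 0.13, corresponds to 0.894 to 1.09 times the WT level (limma-voom adjusted p = 0.953). *Grm7* was at 57.9, 64.0 and 64.5 CPM over the KO libraries, against 63.2, 60.6 and 65.1 CPM over the WT libraries. Its log2 fold change was likewise -0.02 (SE 0.07; adjusted p = 0.947 in limma-voom), with an interval of 0.881 to 1.10 times WT. Both estimates lay above 0 without KO replicate 1 (0.029 and 0.030). They also did with library totals alone, a scaling that moved the median of all genes from 0.008 to 0.034, and they kept their sign with RLE and upper-quartile scaling. *Grm8* was at 20.3, 16.3 and 18.1 CPM over the KO libraries, against 21.4, 23.2 and 19.2 CPM over the WT libraries, from 195 to 301 fragments. KO replicate 1 lay within the WT range. The log2 fold change was -0.21 (SE 0.12; limma-voom unadjusted p = 0.0954, adjusted p = 0.653), and without KO replicate 1 it was -0.30 (unadjusted p = 0.0366, adjusted p = 0.925 in limma-voom). The order of the libraries by *Grm8* ran nearly opposite to that by the 8 striatal markers (Spearman's rho -0.886 and Pearson's r -0.861 over 6 libraries, a description), all 8 of which had a higher mean in KO, at 227 to 331 CPM in sum against 165 to 298 CPM. *Grm8* also ran against the 8 oligodendrocyte markers (Pearson's r -0.760 and Spearman's rho -0.714), 7 of which had a fitted log2 fold change above 0, at 2251 to 2617 CPM in sum against 1757 to 2901 CPM. It ran with the 8 neuronal markers (0.763 and 0.771), 6 of which had one below 0. For the 5 cerebellar granule neuron markers the values were -0.733 and -0.714. Of the 4 tested, 1 had a fitted log2 fold change above 0, and sums were 35.7 to 58.5 CPM against 27.5 to 36.7 CPM. For the 5 choroid plexus markers the values were 0.623 and 0.371. Of the 3 tested, 2 were above 0, and sums were 5.19 to 6.40 CPM against 5.25 to 34.5 CPM. WT replicate 2, the highest library for *Grm8*, stood apart with *Ttr* at 26.85 CPM. The part of these markers in the *Grm8* difference was not tested, and none was at 0 in all libraries.

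**Figure D3:**
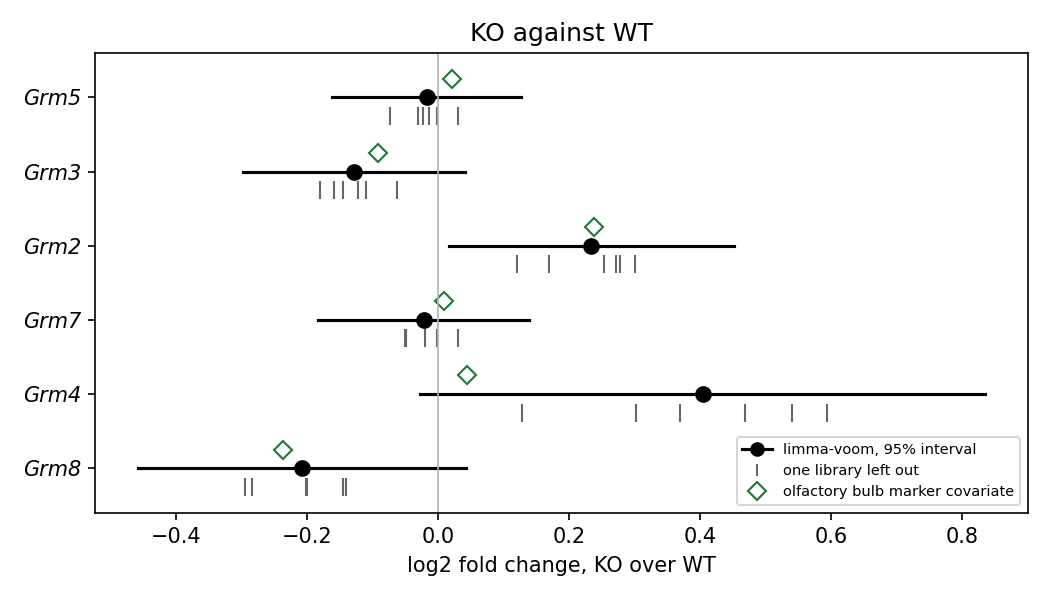
Difference between KO and WT for each receptor on the log2 scale; the black point and line are the limma-voom estimate and its 95% interval, grey ticks the estimates with 1 library left out, and the green diamond the estimate with the olfactory bulb marker covariate. The line for *Grm2* alone does not reach 0, and the diamond for *Grm4* lies at 0.04 against 0.40 without the covariate.

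The libraries did not share the extremes evenly. KO replicate 1 was the highest library for *Grm2* and *Grm4* and the lowest for *Grm3*, *Grm5* and *Grm7*, so it held an extreme for 5 of 6. The mean absolute deviation of that library from the 6-library average was 0.23 on the log2 CPM scale, against 0.08 to 0.12 in the other 5. Much of this came from *Grm4*, which deviated by 0.71 in KO replicate 1. There *Grm2* deviated by 0.24 and *Grm3* by -0.19, and *Grm5*, *Grm7* and *Grm8* lay between -0.11 and 0.05. In WT replicate 1 *Grm2* deviated by -0.34. Genes whose levels ran closest to each receptor over the 6 libraries were sought among the 12409 tested genes whose log2 CPM averaged 2 or more. Each r below was picked as one of the 2 highest of 12409, so it carries no test. For *Grm4* they were *Mdga1*, a cell-surface protein of developing and adult neurons (Pearson's r 0.993), and *Calb2*, which encodes calretinin, a calcium-binding protein of interneurons in cortex and olfactory bulb (0.992). For *Grm2* they were *Zbtb43* (0.994) and *Usp3* (0.991), for *Grm3* *Gpr27* (0.990) and *Rita1* (0.988), and for *Grm8* *Evl* (0.996) and *Fcrls* (0.987). For *Grm5* they were *Klf4* (0.990) and *Abcb9* (0.988), and for *Grm7* *Atad2* and *Pip4k2a* (0.985 each). Between 57 (*Grm7*) and 272 (*Grm2*) of the 12409 genes reached an r above 0.9 with a receptor. With the 2 libraries farthest from the median of the receptor left out, r was lowest for *Pip4k2a* (0.811), *Atad2* (0.816) and *Usp3* (0.856). It was highest for *Fcrls* (0.995).

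Genes around the receptors were taken from 5 lists of 82 genes, 81 of which were tested. No gene of these lists passed the adjusted threshold in limma-voom (lowest adjusted p = 0.635). At an unadjusted p-value under 0.05, 2 were higher and 5 lower in KO, or 8.64% against 7.82% of all genes, which is near the background. Without KO replicate 1, 0 were higher and 2 lower, against 830 of 18701 genes in that fit. With the olfactory bulb marker covariate 3 were higher and 2 lower, against 1148 of 19084 genes. In that fit the list medians lay between -0.016 and 0.025, and compared with the fit without a covariate the sign turned for group I signalling (0.0075), the Gi and Go side (0.0024), glutamate and NAAG handling (-0.016) and the class C receptors (0.025). All these medians are close to 0.

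Of 14 genes downstream of group I receptors, 3 had a fitted log2 fold change above 0 and 11 below (median log2 fold change -0.05). The gene with an unadjusted p-value under 0.05 was *Prkca*, for protein kinase C alpha, with 317, 280 and 261 CPM over the KO libraries, against 254, 231 and 250 CPM over the WT libraries (log2 fold change 0.22, SE 0.08; limma-voom unadjusted p = 0.0150). All KO values lay above all WT values. The *Prkca* estimate was 0.14 (limma-voom unadjusted p = 0.0715) without KO replicate 1 and 0.11 (limma-voom unadjusted p = 0.116) with the olfactory covariate. Among the most abundant genes of the list per length were *Prkcb*, which encodes protein kinase C beta, and *Itpr1*, the calcium release channel, at 255 and 187 TPM, with log2 fold changes of -0.10 and -0.12. *Gnaq*, singled out after its values were seen, encodes the G protein subunit that group I receptors engage. It had 223 ± 10.2 CPM in the KO and 240 ± 8.86 CPM in the WT libraries (SD, n = 3) without overlap, and a limma-voom adjusted p-value of 0.665.

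Of 26 genes for the Gi and Go side, 9 had a fitted log2 fold change above 0 and 17 below (median -0.05), and 3 had an unadjusted p-value under 0.05, all lower in KO. With the olfactory bulb marker covariate, 3 other genes were higher and 1 lower, and without KO replicate 1 there were 0 higher and 2 lower. *Gng3*, a G protein gamma subunit of neurons, was at 179, 186 and 185 CPM over the KO libraries, against 215, 235 and 193 CPM over the WT libraries, without overlap (log2 fold change -0.22, SE 0.07; limma-voom unadjusted p = 0.0119). *Gng2*, another gamma subunit, and *Prkaca*, the catalytic subunit of the cyclic AMP-dependent kinase, had log2 fold changes of -0.20 and -0.17. Without KO replicate 1 these were -0.13 and -0.11, and with the olfactory covariate -0.09 and -0.10, with unadjusted limma-voom p-values above 0.05 in each case. Under the same settings *Gng3* was at -0.20 (limma-voom unadjusted p = 0.0284) and -0.17 (limma-voom unadjusted p = 0.0511). The most abundant were *Gnb1*, a beta subunit, at 561 TPM, *Gng3* at 467 TPM and *Adcy1*, a calcium-stimulated adenylyl cyclase, at 297 TPM. The gamma subunit gene *Gng4*, singled out after its values were seen, was at 171, 70.9 and 52.1 CPM over the KO libraries, against 67.6, 31.02 and 59.0 CPM over the WT libraries. It was highest in KO replicate 1 and lowest in WT replicate 2, the libraries at the ends of the olfactory marker order, and its log2 fold change of 0.79 had an unadjusted limma-voom p-value of 0.0537.

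**Figure D4:**
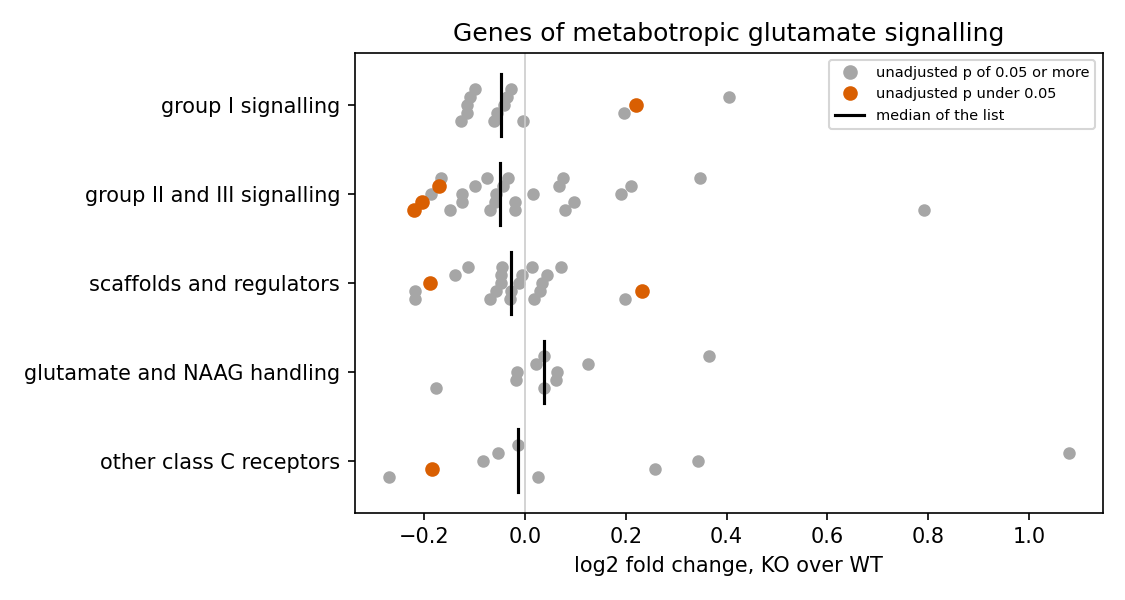
Difference between KO and WT on the log2 scale for the 81 tested genes of 5 lists around the receptors; each point is a gene, orange where the unadjusted limma-voom p-value was under 0.05, and the black bar is the median of the list. The medians lie between -0.05 and 0.04, and the 7 orange points lie on both sides of 0.

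Of 22 scaffolds and regulators, 8 had a fitted log2 fold change above 0 and 14 below (median -0.03), with 1 gene at an unadjusted p-value under 0.05 in each direction. *Homer2*, one of the Homer proteins that bind group I receptors, was at 133, 112 and 115 CPM over the KO libraries, against 102, 95.1 and 110 CPM over the WT libraries, without overlap (log2 fold change 0.23, SE 0.08; limma-voom unadjusted p = 0.0164). *Rgs4*, which speeds the turn-off of Gq and Gi signals, was at 299, 320 and 333 CPM over the KO libraries, against 399, 328 and 360 CPM over the WT libraries (-0.19, SE 0.08; limma-voom unadjusted p = 0.0310), and KO replicate 3 lay within the WT range. With the olfactory bulb marker covariate, *Homer2* was at 0.13 (unadjusted p = 0.116) and *Rgs4* at -0.22 (unadjusted p = 0.0191) in limma-voom. Without KO replicate 1 they were at 0.15 (unadjusted p = 0.0790) and -0.15 (unadjusted p = 0.0953). *Ncdn* (neurochondrin, which binds *Grm5* protein), among the most abundant of the list at 1029 TPM, had a log2 fold change of -0.05.

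Of 10 genes for glutamate and NAAG handling, 7 had a fitted log2 fold change above 0 and 3 below (median 0.04), and 0 had an unadjusted p-value under 0.05 in limma-voom. The most abundant were *Glul*, the glutamine synthetase of astrocytes, at 1553 TPM, *Slc17a7*, the vesicular transporter VGLUT1, at 1040 TPM, and *Slc1a2*, the main astrocytic glutamate transporter, at 952 TPM. Their log2 fold changes were 0.06, -0.18 and 0.04. Of 9 tested class C receptors outside this family, which share its domain plan, 4 had a fitted log2 fold change above 0 and 5 below (median -0.01). The gene with an unadjusted p-value under 0.05 was *Gabbr2*, a subunit of the GABA-B receptor, with 382, 412 and 477 CPM over the KO libraries, against 472, 516 and 452 CPM over the WT libraries (-0.18, SE 0.08; limma-voom unadjusted p = 0.0473), with overlapping groups. The *Gabbr2* estimate was -0.11 (limma-voom unadjusted p = 0.189) without KO replicate 1 and -0.07 (limma-voom unadjusted p = 0.327) with the olfactory covariate. Its partner *Gabbr1* (385 TPM) was at -0.08 and the orphan receptor gene *Gprc5b* (124 TPM) at 0.26 (SE 0.12; limma-voom unadjusted p = 0.0502). *Gprc5b* had 202, 145 and 141.4 CPM over the KO libraries, against 140.5, 123 and 140.3 CPM over the WT libraries, so KO replicate 1 stood apart and KO replicate 3 barely exceeded the highest WT library.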

How the data were processed

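Polyadenylated RNA of prefrontal cortex was measured in 3 KO and 3 WT samples, grouped by title. The deposited values are raw counts of fragments per gene, 1 table per sample. Per the labels, the authors aligned reads with STAR 2.7.9a. Per the file headers, they counted fragments over exons with featureCounts 1.6.0 (paired-end, strand option 2) on GENCODE M31 (GRCm39), without normalization or pooling. Fragments in several places were not counted. The methods name an earlier assembly, so coordinates are those of the files. The exon length per gene is also deposited.

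Symbols came from a supplied table of gene names by Ensembl identifier (52073 genes matched), and coding lengths from GENCODE M21. Genes with at least 6 fragments in at least 1 library (19084) were tested. After TMM scaling (edgeR 4.0.16), KO and WT were compared by voom and limma 3.58.1 (R 4.3.3), testing both directions, with Benjamini-Hochberg adjustment over all genes and a threshold of 0.05. The filter and test follow the methods of the study, which name edgeR and voom for normalization without stating TMM. Alternatives were edgeR's quasi-likelihood test, DESeq2 1.42.0, other scalings, filters, weights and covariates, the replicate block and leaving out each library. Fragments carry no molecular identifiers, so counting errors cover counting only.

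The receptors and lists were chosen with earlier results of these data known. Named by rule were the receptors, *Pla2g4e*, list genes of lowest unadjusted p-value under 0.05 or highest TPM, and the 2 genes most correlated with each receptor. Some list genes that the rule names are not reported here. The 5 gene lists around the receptors and the marker lists were written by hand from general knowledge. Of the marker lists, those of olfactory bulb, striatal, neuronal, astrocyte, oligodendrocyte, oligodendrocyte precursor, cerebellar granule neuron and choroid plexus genes are reported here. Microglial and endothelial lists were also searched for the largest r of a receptor.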

Additional observations from a re-analysis of the deposited data

How the results depend on the processing

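The log2 fold changes of *Grm2*, *Grm3*, *Grm4* and *Grm8* kept their sign, with adjusted p-values above 0.05, in the 18 alternatives run for each, over 0.05 to 0.30, -0.18 to -0.04, 0.04 to 0.59 and -0.30 to -0.14. Across these alternatives the adjusted p-values ranged from 0.335 to 0.999 for *Grm2*, 0.222 to 0.999 for *Grm4* and 0.398 to 0.999 for *Grm8*. *Grm5* changed sign with library totals alone (0.0075), among the 4 libraries with Y-linked transcripts (0.015) and with the olfactory bulb marker covariate (0.022), and lay between -0.073 and 0.029 with each replicate left out in turn. *Grm7* changed sign with library totals alone (0.0028), library quality weights (0.0035), the Y-linked libraries (0.033) and the olfactory covariate (0.0083), and lay between -0.051 and 0.030 with each replicate left out. Without KO replicate 1 both were above 0. The cause was not tested.

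The number of receptors at an unadjusted p-value under 0.05 was 2 in edgeR, with no filter beyond 1 fragment, with the Y-linked covariate and with the replicate block, 0 in DESeq2, the Y-linked libraries and the olfactory covariate, and 1 to 2 over single replicates left out. The receptors concerned changed: *Grm8* without KO replicate 1, *Grm4* without KO replicate 3 or WT replicate 1, *Grm2* without KO replicate 2 or WT replicate 2, *Grm2* and *Grm8* without WT replicate 3, and *Grm8* (unadjusted p = 0.0477, adjusted p = 0.644) in place of *Grm2* (unadjusted p = 0.0577) with library quality weights in limma-voom. No receptor passed the adjusted threshold in any of these. Over all genes the adjusted threshold was passed by 1 gene in DESeq2, 24 with the Y-linked covariate, 3 in the Y-linked libraries, 1 with the olfactory covariate and 0 to 1 over single replicates left out. The unadjusted count over all genes was 1507 of 19084 in edgeR, 2115 of 29943 with no filter beyond 1 fragment and 2030 of 19084 with the Y-linked covariate. With the replicate block it was 1693 of 19084, and with library quality weights 1462 of 19084. It was 902 of 19081 in DESeq2, 696 of 18476 in the Y-linked libraries and 1148 of 19084 with the olfactory covariate. Over single replicates left out it ran from 782 of 18936 (without WT replicate 2) to 2239 of 18931 (without WT replicate 3).

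Same-numbered samples of the groups deviated with correlations of 0.246, 0.051 and -0.018, and the numbers were not taken as pairs. Under the replicate block, *Grm4* had a log2 fold change of 0.42 (limma-voom unadjusted p = 0.00220, adjusted p = 0.335). Replicate 1 of both groups was also the highest in olfactory bulb markers, and how far the block stands for those markers was not tested. The unadjusted count over all genes was then 1693.

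Without division by length, the shares of the summed level were 12.1% for *Grm2*, 13.7% for *Grm3*, 50.6% for *Grm5*, 13.4% for *Grm7* and 4.24% for *Grm8*. With coding length, chosen after seeing the data, *Grm3* took 16.0%, *Grm5* 43.3% and *Grm8* 4.81%. Levels per length of the RefSeq protein were not computed (not run), and GENCODE coding length took its place. Depth limits *Grm8* most, with a counting error of 6.27% at its mean count.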

Other observations

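Of the genes that lie within or across the 6 receptor genes, *Gm44846* and *Gm20387* had the most fragments, and both were singled out after their values were seen. *Gm44846*, a transcript annotated as awaiting experimental support, lies inside *Grm5* on the same strand (chromosome 7, 87768366 to 87771608 in GRCm39) and shares no exon base with it. The KO libraries held 161, 152 and 126 fragments and the WT libraries 109, 109 and 116, or 11.2 ± 1.46 and 8.86 ± 0.286 CPM without overlap. This is a log2 fold change of 0.32 (SE 0.14; limma-voom unadjusted p = 0.0408, adjusted p = 0.635). Without KO replicate 1 it was 0.33 (limma-voom unadjusted p = 0.0622). *Grm5* itself differed by -0.02, and reads from unspliced *Grm5* RNA and from *Gm44846* cannot be told apart in these counts.

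*Gm20387*, annotated as antisense, shares 130 exon bases with *Grm7* on the opposite strand, which strand-specific counting separates. The KO libraries held 39, 34 and 35 fragments and the WT libraries 38, 36 and 43, which per scaled library did not overlap (2.74 ± 0.106 and 3.10 ± 0.239 CPM, log2 fold change -0.18, SE 0.21; limma-voom unadjusted p = 0.418).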
